A study of Mus musculus with 6 samples.

Results

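The genes followed here carry thyroid hormone through the blood, take it into cells, convert it or answer to it: Ttr, Slc16a10, Dio1, Thra, Thrb and Klf9. They were chosen by gene symbol, and all 6 were found among the 15953 genes of the expression table and passed the filter on low counts. The series holds messenger RNA sequencing of liver from C57BL/6 mice, 3 wild type and 3 labelled as Cgref1 knockout (Cgref1 KO), each described as a biological replicate. Hepatocytes are the labelled cell type, but the RNA was taken from liver tissue according to the stated design. The sources used here do not say how the allele was made, whether other alleles or treatments were present, or the age and sex of the animals. The question put to these genes is whether their transcript levels differed between the genotypes.

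The thyroid gland secretes mainly thyroxine, a prohormone that travels in plasma bound to carrier proteins such as transthyretin, the thyroxine-binding globulin and albumin. Cells take it up through membrane transporters, and the selenoenzyme deiodinase type 1, which is abundant in liver, removes an iodine to give the active hormone triiodothyronine. Inside the nucleus the active hormone binds receptors alpha and beta, which sit on DNA mostly as partners of retinoid X receptors and switch genes of lipid, sterol and carbohydrate metabolism. Receptor beta is the main form in hepatocytes, and Dio1 and the transcription factor gene Klf9 are themselves known receptor targets.

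The libraries held 17627734 to 18366443 estimated counts, and 14260 to 14628 genes had a count above 0. Cgref1 itself, the targeted gene, was counted 7, 7 and 19 times in the wild type group against 7, 12 and 10 times in the group labelled Cgref1 KO, so a loss of its transcript was not seen and the genotype, written below as KO-labelled, rests on the labels. The summed level of 14 hepatocyte marker genes was 105612.1 to 136716.4 CPM (counts scaled to the library total) in wild type livers and 106482.3 to 132988.2 CPM in KO-labelled livers. Summed markers of other cell types ran, in the same order of groups, from 336.6 to 374.0 and from 428.2 to 458.9 CPM for Kupffer cells (13 genes), from 348.2 to 464.7 and from 306.8 to 355.4 for stellate cells (12 genes), and from 330.9 to 402.8 and from 383.7 to 399.5 for sinusoidal endothelium (12 genes). For erythroid genes (7) they ran from 2104.8 to 3514.4 and from 1757.5 to 2752.1 CPM, for pancreatic acinar genes (5) from 15.8 to 27.5 and from 25.8 to 27.5, and for choroid plexus genes (6) from 81.3 to 110.8 and from 55.6 to 87.2. Nearly all of the acinar sums was Cela1, at 15.2 to 26.9 and 24.5 to 26.3 CPM. Nearly all of the choroid plexus sums was Prlr, at 80.8 to 110.4 and 55.5 to 87.2 CPM. The other choroid plexus genes had at most 5 counts in a library. Intestinal markers (21 genes) summed to 134.9, 80.7 and 140.5 CPM in wild type replicates 1, 2 and 3 and to 69.8 to 87.6 CPM in KO-labelled livers. Most of each sum was Fabp2, at 121.6, 73.2 and 115.4 CPM in wild type and 73.4, 81.4 and 60.5 CPM in KO-labelled livers. Most of the 21 genes, among them Reg3b, Reg3g, Sis, Muc2, Krt20 and Zg16, had 0 counts in every KO-labelled library. Their counts were thus seen in the wild type group only, mostly in replicates 1 and 3. In wild type replicates 1, 2 and 3 Reg3b had 44, 0 and 32 counts, and Zg16 had 19, 4 and 63. Sis had 33, 2 and 6. Lgals4, Tff3 and Lyz1 were counted in every library of both groups. No marker was at 0 in every library (0 of the genes listed). Of these lists, the Kupffer cell sums were the ones whose group ranges lay apart with the KO-labelled group higher.

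Sequence upstream of the start sites is shown for Dio1 and Slc16a10, whose levels ran most closely in parallel over the libraries, and for Thrb, whose upstream window was the only one among those of these genes to hold a thyroid hormone receptor hexamer. The windows are the 250 bases before the start site of the RefSeq gene model (GRCm38.p6), on the strand of the gene. The gene bounds deposited with the counts differ from these models. By the deposited bounds the Thrb and Klf9 windows lie inside the genes, and the Slc16a10 window overlaps its gene's start. Only the Dio1 window lies wholly outside its gene. Windows were matched by symbol for 4 of the 6 genes, and capitals mark a match to one of the motifs searched.
Dio1, minus strand, chr4:107307169-107307418: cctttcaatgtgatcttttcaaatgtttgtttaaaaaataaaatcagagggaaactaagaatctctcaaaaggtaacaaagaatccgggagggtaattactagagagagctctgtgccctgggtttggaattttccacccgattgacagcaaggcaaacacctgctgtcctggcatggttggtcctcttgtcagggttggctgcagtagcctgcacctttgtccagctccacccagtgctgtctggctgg
Slc16a10, minus strand, chr10:40142255-40142504: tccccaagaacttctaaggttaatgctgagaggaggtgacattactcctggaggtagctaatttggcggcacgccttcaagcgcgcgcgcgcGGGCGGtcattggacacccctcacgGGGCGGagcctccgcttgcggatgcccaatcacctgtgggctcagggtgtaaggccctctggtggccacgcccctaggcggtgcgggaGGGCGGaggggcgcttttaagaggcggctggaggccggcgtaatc
Thrb, plus strand, chr14:17660710-17660959: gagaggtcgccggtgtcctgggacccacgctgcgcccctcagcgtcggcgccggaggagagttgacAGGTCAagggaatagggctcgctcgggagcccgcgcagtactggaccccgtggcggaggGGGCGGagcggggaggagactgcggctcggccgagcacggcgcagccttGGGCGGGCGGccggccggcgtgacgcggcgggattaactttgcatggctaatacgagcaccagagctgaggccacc
The motifs searched on both strands were the thyroid hormone receptor core hexamer AGGTCA, its direct repeat with 4 spacer bases, the clock factors' E-box CACGTG, the core of the glucocorticoid receptor site AGAACA, the TATA box TATAAA and the GC box GGGCGG. Any match to the direct repeat would also count as a match to the hexamer. The Thrb window held AGGTCA once, 184 bases before the start site, a hexamer found in 14.0% of the 32851 windows in the reference. It also held GGGCGG 3 times, 2 of these overlapping, and the Slc16a10 window held it 3 times, against 32.7% of all windows with at least 1. No motif was found in the windows of Dio1 and Klf9. A second Thrb window, at chr14:17981394-17981643, held CACGTG once, AGAACA on each strand and TATAAA once, motifs present in 6.02%, 16.1% and 12.4% of all windows. The direct repeat, present in 0.0152% of windows, was in none of these. Bases composed of G and C made up 46.8% of the Dio1 window, 64.4% of that of Slc16a10, 59.6% of that of Klf9 and 71.6% of the first Thrb window, with a median of 52.4% over all windows.

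Transcript levels of these genes, compared per length as TPM (transcript counts scaled by length and library), differed widely. Ttr, the transthyretin gene, averaged 5195.2 TPM over the 6 libraries and ranked 26 among all genes. Dio1 followed at 151.6 TPM (rank 736), then Klf9 at 31.6 TPM (rank 2427), Slc16a10 at 25.2 TPM (rank 2835), Thrb at 7.27 TPM (rank 5913) and Thra at 4.84 TPM (rank 6977). The ranges of neighbours in this order did not overlap between Ttr and Dio1, Dio1 and Klf9, or Slc16a10 and Thrb. Klf9 and Slc16a10 could not be ordered beyond their spread, since Klf9 was the higher in 4 of 6 libraries. Thrb was above Thra in 6 of 6 libraries, by a mean factor of 1.5, although the ranges of TPM over all libraries overlapped. Retinoid X receptor alpha, the receptors' usual partner in liver, was far above both, with Rxra at 111.6 ± 11.8 TPM in wild type (SD, n = 3). The plot of TPM values shows this order.

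**Figure D1:**
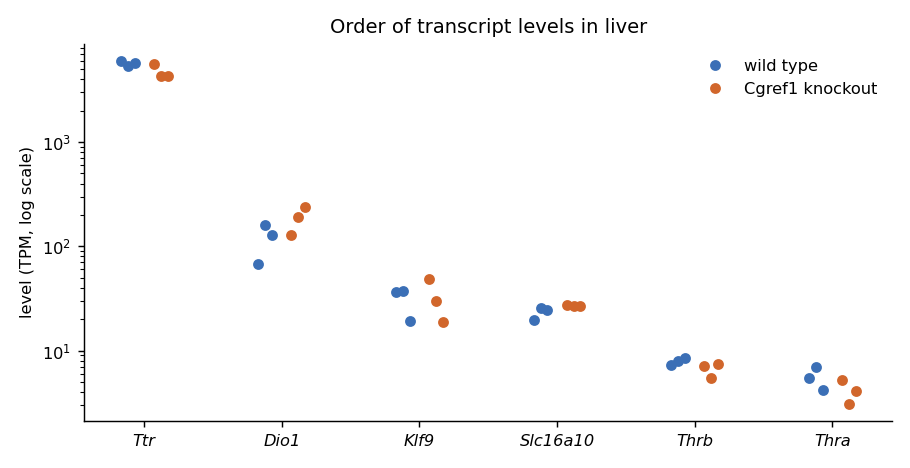
Transcript levels of the 6 genes in TPM (log scale) in each library, wild type in blue and KO-labelled in orange, ordered by their mean. Ttr lies at 4260.2 to 5964.7 TPM and Thra, the lowest, at 3.09 to 6.93 TPM, while the points of Klf9 and Slc16a10 intermingle.

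Between the groups, none of the 6 genes passed the threshold over all genes (0 of 6, edgeR quasi-likelihood test with Benjamini-Hochberg adjustment at 0.05). In the whole table this test called 1 of 12033 genes, or 0.00831%. At an unadjusted p under 0.05 it gave 1 of the 6 genes, Slc16a10, beside 5.15% of all genes tested. Of the log2 fold changes 3 were above 0 and 3 below, with a median of 0.03, and 49.5% of all genes tested were above 0. These p-values measure the spread between the samples as deposited. In bulk tissue, fewer cells of a type and less RNA per cell cannot be told apart.

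The carrier comes first along the path of the hormone. Ttr (gene 22139, chromosome 18 from 20663693 to 20674326, plus strand, GRCm38) encodes transthyretin, which the liver secretes and which binds thyroxine and the retinol-binding protein. It stood at 4540.0, 4016.5 and 4210.8 CPM in wild type replicates 1, 2 and 3, and at 4392.6, 3661.7 and 3509.9 CPM in KO-labelled replicates 1, 2 and 3. The KO-labelled replicate 1 lay inside the wild type range and the others lay below it. The means were 4255.8 ± 264.6 and 3854.7 ± 472.0 CPM (SD, n = 3), a log2 fold change of -0.14 (SE 0.12, 95% confidence interval -0.42 to 0.13) with an edgeR adjusted p of 0.988. The interval thus reached from 0.747 to 1.1 times the wild type level.

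Among the other carriers and uptake genes, 13 of 14 were tested and 0 passed over all genes. The median log2 fold change was -0.03. The groups' CPM ranges lay apart in 5 of the 13, 4 higher and 1 lower, beside 10.8% of all genes tested. Alb (albumin) and Rbp4 (the retinol-binding protein that travels with transthyretin) had the highest levels, at 49958.2 ± 10554.2 and 4867.1 ± 398.9 TPM in wild type (SD, n = 3). Serpina7, the gene for thyroxine-binding globulin, was the one lower gene with ranges apart, and is named because of its values. It stood at 109.7, 68.3 and 129.7 CPM in wild type livers and at 63.1, 66.3 and 35.4 CPM in KO-labelled livers, so that the nearest libraries of the groups differed little. Its log2 fold change was -0.90 (SE 0.33) with an edgeR adjusted p of 0.939.

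Slc16a10 (gene 72472, chromosome 10 from 40033535 to 40142266, minus strand) encodes the monocarboxylate transporter family member that carries thyroid hormones and aromatic amino acids. It stood at 71.8, 91.1 and 88.1 CPM in wild type livers and at 102.6, 111.1 and 105.7 CPM in KO-labelled livers. Every KO-labelled library was above every wild type library, the only such separation among the 6 genes. The same separation towards higher values was seen in 6.19% of all genes tested. The means were 83.7 ± 10.4 and 106.5 ± 4.27 CPM (SD, n = 3), and the log2 fold change was 0.35 (SE 0.11, 95% confidence interval 0.11 to 0.59), a factor of 1.27. The unadjusted p was 0.00961 and ranked 136 among all genes, and the edgeR adjusted p was 0.85. Kupffer cell marker sums also lay apart in this direction, at 336.6 to 374.0 against 428.2 to 458.9 CPM, with 13 of 13 markers positive in log2 fold change beside 49.5% of all genes, and their part in the Slc16a10 difference was not tested.

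Amino acid transporters that also carry thyroid hormone were the other uptake genes with ranges apart. Slc7a5 and Slc3a2 encode the light and heavy chain of one heterodimeric transporter. Slc7a5 had 2.04, 2.39 and 1.8 CPM in wild type livers and 3.50, 3.43 and 4.63 CPM in KO-labelled livers, with a log2 fold change of 0.89 (SE 0.23) and an edgeR adjusted p of 0.754. Slc3a2 stood at 25.3 ± 2.54 and 31.1 ± 2.86 CPM (SD, n = 3), with a log2 fold change of 0.30 (SE 0.12) and an edgeR adjusted p of 0.928. Slc7a8, another light chain, had 0.36 (SE 0.20). For all 3 the group ranges in CPM lay apart, although wild type levels were 0.877 TPM for Slc7a5 and 1.26 TPM for Slc7a8. In TPM the ranges of Slc3a2 overlapped, and those of Slc7a5 and Slc7a8 lay apart.

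**Figure D2:**
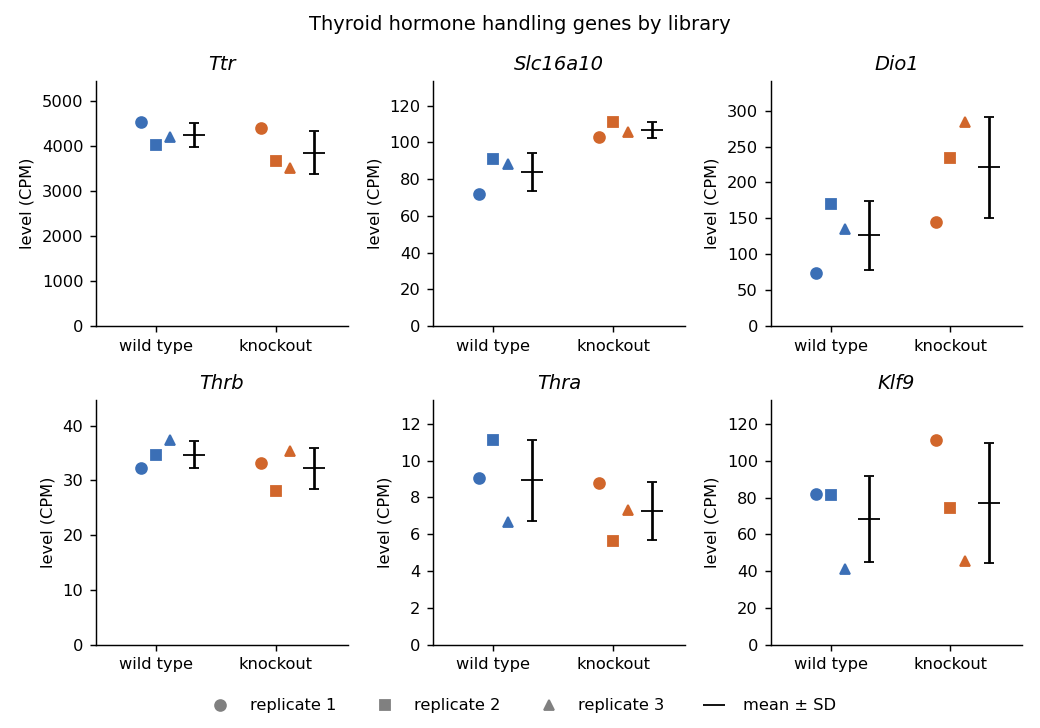
Level of each gene in CPM (linear axes from 0) by group, with 1 point per library, symbols for the replicate numbers, and the mean ± SD (n = 3) in black. Slc16a10 is the one gene whose groups do not overlap (highest wild type library 91.1, lowest KO-labelled library 102.6 CPM), while Dio1 and Klf9 spread most within a group.

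Dio1 (gene 13370, chromosome 4 from 107291465 to 107307168, minus strand) encodes the hepatic deiodinase. It had 74.4, 169.7 and 135.8 CPM in wild type livers and 145.1, 234.2 and 284.5 CPM in KO-labelled livers. Of the KO-labelled livers 2 exceeded every wild type library, and the third, replicate 1, fell between wild type replicates 2 and 3. Within the wild type group alone the highest library was 2.28 times the lowest, and over all 6 libraries the factor was 3.82. The means were 126.6 ± 48.3 and 221.3 ± 70.6 CPM (SD, n = 3), the log2 fold change was 0.80 (SE 0.39, 95% confidence interval -0.17 to 1.78) and the edgeR adjusted p was 0.973. The point estimate of 1.75-fold was the largest of the 6 genes and its interval, 0.891-fold to 3.43-fold, the second widest on the log2 scale. Wild type replicate 1, the lowest library, was also one of the pair with the most intestinal marker counts, whose part was not tested. Without it the log2 fold change was 0.53, without wild type replicate 2 it was 1.08, and with wild type replicate 2 as the only control it was 0.37.

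Genes of hormone conversion and clearance were read beside Dio1, with 9 of 10 genes in the table tested and 0 called. Dio3, whose enzyme inactivates the hormone, was near 0 in all libraries, at no more than 0.175 CPM. Their median log2 fold change was 0.03, and the ranges lay apart in 3 of 9, all higher, beside 6.19% of all genes tested in that direction. Ugt2b1, a glucuronosyltransferase gene, stood at 893.5 ± 37.8 and 1273.2 ± 186.2 CPM (SD, n = 3), with a log2 fold change of 0.51 (SE 0.12) and an edgeR adjusted p of 0.739. Ugt1a9, of a family whose enzymes conjugate thyroxine, had 0.78 (SE 0.30) with an edgeR adjusted p of 0.939. Its reads are uncertain, since the Ugt1a genes share most of their exons. The sulfotransferase gene Sult2a8 had the highest level, at 980.0 ± 28.6 and 966.7 ± 58.1 TPM. With Ugt2b1 and Ugt1a9 it made up the genes whose CPM ranges lay apart, with a log2 fold change of 0.12 (SE 0.10). In TPM the ranges of Sult2a8 and Ugt1a9 overlapped, and those of Ugt2b1 lay apart. For Ugt1a9 the nearest libraries of the groups had 23.5 and 23.7 CPM.

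Deiodinases contain selenocysteine, so selenoprotein genes and the genes that insert selenocysteine were read beside Dio1. All 23 in the table were tested, 0 passed, and the median log2 fold change was 0.01. Selenop, the plasma selenium carrier, was nearly constant over the libraries, with 6434.5 ± 61.7 CPM in wild type livers and 6468.4 ± 102.3 CPM in KO-labelled livers (SD, n = 3). Gpx1, of a glutathione peroxidase, gave a log2 fold change of 0.24 (SE 0.11, edgeR adjusted p 0.964). The ranges of Gpx1 lay apart in CPM and overlapped in TPM. Selenos, of the endoplasmic reticulum, had 0.16 (SE 0.09, edgeR adjusted p 0.974).

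The receptors were the least abundant of the 6 genes. Thrb (gene 21834, chromosome 14 from 17659172 to 18040097, plus strand, 28 transcripts in the table) had 32.2, 34.7 and 37.3 CPM in wild type livers and 33.1, 28 and 35.4 CPM in KO-labelled livers. Of the KO-labelled livers 2 lay within the wild type range and replicate 2 lay below it. The means of 34.7 ± 2.51 and 32.2 ± 3.77 CPM (SD, n = 3) gave a log2 fold change of -0.11 (SE 0.12, 95% confidence interval -0.37 to 0.15) and an edgeR adjusted p of 0.988.

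Thra (gene 21833, chromosome 11 from 98740920 to 98773402, plus strand, 8 transcripts in the table) encodes receptor alpha, together with a splice form that does not bind the hormone. The gene-level values do not separate these forms. It had 9.05, 11.1 and 6.66 CPM in wild type livers and 8.80, 5.64 and 7.33 CPM in KO-labelled livers. The ranges overlapped, with wild type replicate 2 highest and KO-labelled replicate 2 lowest. The means of 8.92 ± 2.2 and 7.26 ± 1.58 CPM (SD, n = 3) gave a log2 fold change of -0.30 (SE 0.22, 95% confidence interval -0.80 to 0.20) with an edgeR adjusted p of 0.984.

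The Thra values rest on a division of reads with a neighbour. The 3′ end of Thra lies opposite Nr1d1, the gene of the clock repressor REV-ERB alpha on the minus strand, with an overlap of 5538 bases between the spans in the deposited coordinates and of 263 exonic bases in GENCODE M21, 5.7% of the Thra exons. The estimated counts of Thra were 164.2, 208.0 and 122.0 in wild type livers and 150.8, 97.4 and 132.9 in KO-labelled livers, whole in none of the libraries (0 of 6). Those of Nr1d1 were 3377.8, 1466.95 and 564.03 in wild type livers and 1832.2, 701.56 and 546.06 in KO-labelled livers. The sum of both genes was whole, within 0.01 counts, in 6 of 6 libraries, and of the 668 other genes with fractional counts in every library Nr1d1 was the 1 gene for which this held. The fractional parts of the 2 genes thus complemented each other, and the strand of the kit is not stated, so reads of the overlap cannot be assigned to either gene with certainty. Nr1d1 had more counts than Thra in every library. How far its reads entered the Thra values was not tested. The other 5 genes had whole counts in every library, and no exon of theirs overlapped another annotated gene.

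The balance of the receptor genes was compared within each library, which needs no scaling between libraries. The ratio of Thrb to Thra in TPM was 1.33, 1.15 and 2.03 in wild type livers and 1.35, 1.78 and 1.8 in KO-labelled livers, all within the wild type range. The means were 1.5 ± 0.465 and 1.64 ± 0.254 (SD, n = 3). The log2 ratio differed by 0.16, with p = 0.6 in an exact two-sided permutation test, for which 3 against 3 libraries can give no p below 0.1. The sign turned without wild type replicate 2 (-0.01).

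All 16 genes of receptor partners and cofactors were tested and 0 passed, with 0 at an unadjusted p under 0.05. The median log2 fold change was 0.01 and the ranges lay apart in 2 of 16, beside 10.8% of all genes tested. Tbl1xr1, part of the corepressor complex, had 0.19 (SE 0.11, edgeR adjusted p 0.974), and Ncoa1, a coactivator gene, had -0.24 (SE 0.15, edgeR adjusted p 0.974). Hdac3, the histone deacetylase of the corepressor complex, stood at 24.6 ± 1.25 and 22.7 ± 2.46 TPM, and Rxra at 111.6 ± 11.8 and 111.8 ± 5.62 TPM (SD, n = 3).

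Klf9 (gene 16601, chromosome 19 from 23137071 to 23172850, plus strand) encodes a zinc-finger factor induced by thyroid hormone and also by glucocorticoids, with a daily rhythm in many tissues. It had 82.2, 81.3 and 41.4 CPM in wild type livers and 111.3, 74.4 and 45.6 CPM in KO-labelled livers. Replicate 3 was the lowest library in both groups, and the groups overlapped over most of their range. The means of 68.3 ± 23.3 and 77.1 ± 32.9 CPM (SD, n = 3) gave a log2 fold change of 0.17 (SE 0.43, 95% confidence interval -0.93 to 1.27) and an edgeR adjusted p of 0.992. The sign was negative without wild type replicate 3 (-0.09), without KO-labelled replicate 1 (-0.19) and with wild type replicate 2 as the only control (-0.09).

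Klf9 and Dio1 were the most variable of the 6 genes within groups. The within-group SD of log2 CPM was 0.61 for Klf9 and 0.56 for Dio1, larger than in 94.9% and 93.8% of the genes tested, whose median was 0.19. It was 0.34 for Thra (80.3%) and 0.14 for each of Thrb, Slc16a10 and Ttr (33.5%, 31.5% and 31.2%).

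**Figure D3:**
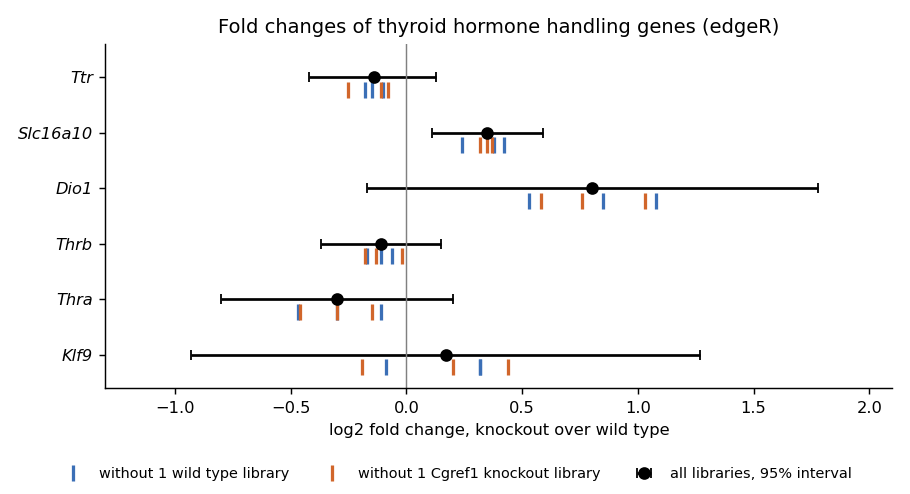
Log2 fold change of each gene, knockout over wild type, from edgeR with its 95% confidence interval (black), and the value after leaving out each wild type (blue) or KO-labelled (orange) library. Slc16a10 alone has an interval above 0 (0.11 to 0.59), and Klf9 is the gene whose left-out values fall on both sides of 0 (-0.19 to 0.44).

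Other genes with rhythmic or glucocorticoid-driven expression were read beside Klf9. All 17 tested clock genes had overlapping ranges, where only 10.8% of all genes tested had ranges apart. Of these clock genes 0 passed, and the median log2 fold change was 0.08. Nr1d1 spread widely, at 186.4, 77.9 and 30.8 CPM in wild type livers and 106.8, 40.8 and 30.1 CPM in KO-labelled livers, with replicate 1 highest and replicate 3 lowest in each group. Dbp and Tef, output factors of the clock with the highest levels of that list, stood at 139.0 ± 46.7 and 146.5 ± 46.1 CPM, and at 161.2 ± 39.3 and 176.7 ± 15.4 CPM (SD, n = 3). The smallest p-values belonged to Clock, with a log2 fold change of -0.39 (SE 0.23, edgeR adjusted p 0.974), and Nfil3, with 0.19 (SE 0.15, edgeR adjusted p 0.984). The sources used here do not say at what time of day livers were taken, and its part in the spread of Klf9 was not tested.

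**Figure D4:**
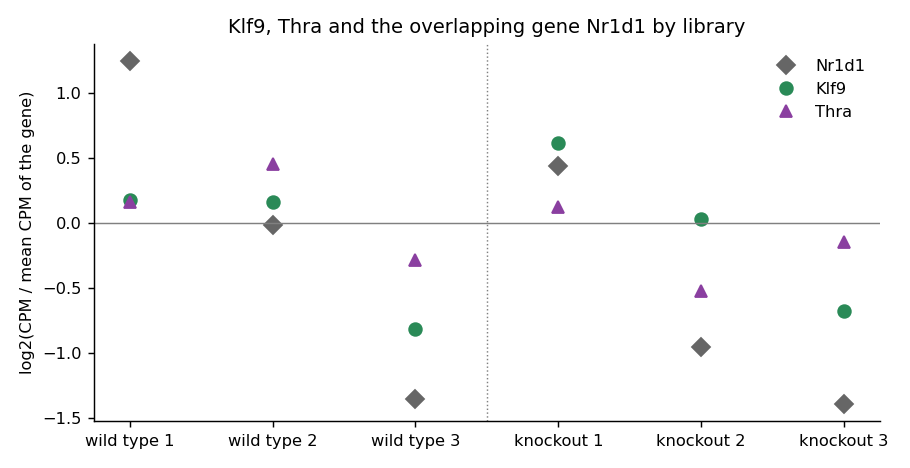
Level of Klf9, Thra and Nr1d1 in each library as log2 of the CPM over the gene's mean CPM, with wild type on the left and KO-labelled livers on the right of the dotted line. Nr1d1 ranges from 30.1 to 186.4 CPM, and Klf9 and Nr1d1 are both lowest in replicate 3 of each group.

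Of 12 glucocorticoid-induced genes 11 had positive log2 fold changes, with a median of 0.32, beside 49.5% positive over all genes, and 0 passed. Lcn2, an iron-scavenging protein gene, stood at 2.95 ± 0.944 and 6.46 ± 1.76 CPM (SD, n = 3), with a log2 fold change of 1.13 (SE 0.28, edgeR adjusted p 0.739). Zbtb16, a zinc-finger factor gene, had 1.36 (SE 0.65, edgeR adjusted p 0.973), with 2.43, 15.1 and 6.22 CPM in wild type livers and 22.4, 15.6 and 22.9 CPM in KO-labelled livers. Its value was 2.23 without wild type replicate 2, 0.92 without wild type replicate 1 and 0.42 with wild type replicate 2 as the only control. The most abundant were Tat, a tyrosine aminotransferase gene, at 590.6 ± 371.7 and 670.1 ± 276.5 TPM, and Errfi1 at 400.0 ± 119.9 and 452.7 ± 17.4 TPM. Tat, unlike Klf9, was highest in replicate 3 of both groups, at 1578.2 and 1702.0 CPM. Among the 12 tested Krüppel-like factor genes other than Klf9, 0 passed and all ranges overlapped, beside 10.8% of all genes tested with ranges apart. Klf1 had 0.55 (SE 0.25, edgeR adjusted p 0.964) and Klf15, the most abundant at 78.8 ± 12.8 and 85.0 ± 14.2 TPM, had 0.25 (SE 0.14, edgeR adjusted p 0.974). Klf3 followed at 17.5 ± 4.76 and 18.7 ± 2.46 TPM.

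Genes that thyroid hormone induces in liver lay on both sides of 0. Of 19 genes found, 17 were tested and 0 passed over all genes in edgeR, with 4 higher and 3 lower at an unadjusted p under 0.05, beside 2.95% and 2.2% of all genes tested in these directions. These 7 were also the ones whose group ranges in CPM lay apart, beside 10.8% of all genes tested. The median log2 fold change was 0.11. The lower 3 encode lipogenic enzymes. Acaca (acetyl-CoA carboxylase) stood at 113.1 ± 9.82 and 76.9 ± 6.34 CPM (SD, n = 3; log2 fold change -0.56, SE 0.10, edgeR adjusted p 0.405). Fasn had -1.11 (SE 0.35, edgeR adjusted p 0.918) and Me1, the malic enzyme gene, -1.19 (SE 0.36, edgeR adjusted p 0.903). DESeq2 called 28 of the 12033 genes, these 3 among them, with adjusted p of 0.00835 for Acaca, 0.00835 for Fasn and 0.00352 for Me1. Fasn stood at 732.3, 397.4 and 959.7 CPM in wild type livers and at 366.3, 241.1 and 360.7 CPM in KO-labelled livers. Wild type replicates 1 and 3, its highest libraries, also had the most intestinal marker counts, whose part was not tested. With wild type replicate 2 as the only control the log2 fold change was -0.31 for Fasn and -0.76 for Me1. The higher 4 act in cholesterol transport, fatty acid oxidation and pyrimidine breakdown. Scarb1, the receptor for high-density lipoprotein, stood at 130.4 ± 10.8 and 164.8 ± 12 CPM (SD, n = 3; log2 fold change 0.34, SE 0.10, edgeR adjusted p 0.85). Apoa1, the main protein of that lipoprotein and the most abundant gene of the list, had 0.41 (SE 0.17), the carnitine palmitoyltransferase gene Cpt1a 0.35 (SE 0.12) and the uridine phosphorylase gene Upp2 0.44 (SE 0.14). In TPM the ranges of Scarb1, Apoa1 and Upp2 overlapped, while those of Cpt1a and of the lower 3 genes lay apart. Thrsp, a classical responder in lipogenesis, varied more between libraries than between groups, at 484.4, 506.8 and 1353.7 CPM in wild type livers and 428.3, 422.4 and 1033.2 CPM in KO-labelled livers. Me1, Fasn, Cpt1a and Upp2, like Slc7a8 above, were chosen after their values were seen.

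**Figure D5:**
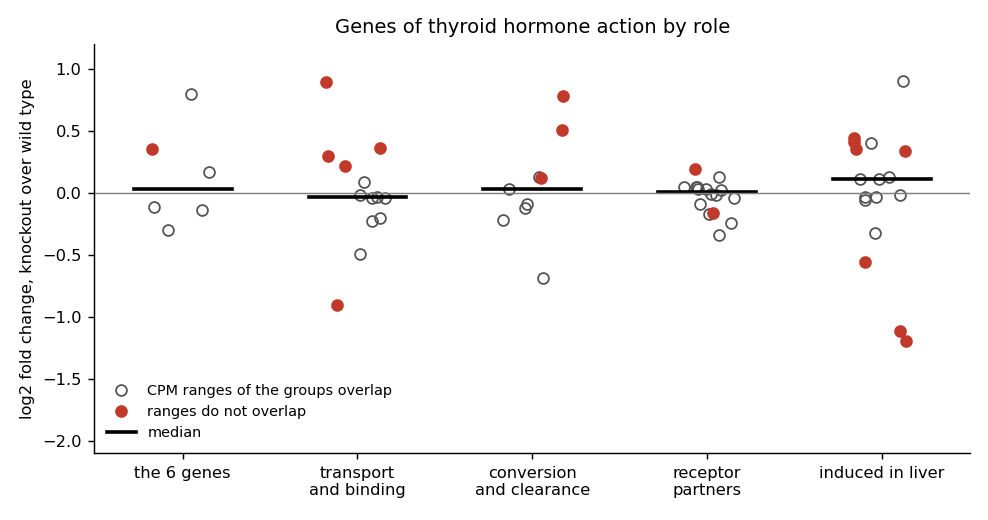
Log2 fold changes of the 6 genes and of 4 lists of genes of thyroid hormone action, with 1 point per tested gene, filled where the CPM ranges of the groups do not overlap, and the median as a bar. The receptor partners gather near 0 (median 0.01), while the induced genes spread from -1.19 to 0.90.

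The pathway named thyroid hormone signaling in the deposited KEGG annotation covered 111 genes, some of the 6 included, of which 102 were tested. None passed (0 of 102, edgeR), 54 were above 0 and 48 below, and the median log2 fold change was 0.02. At an unadjusted p under 0.05 there were 5 higher and 2 lower, or 7 of 102 beside 5.15% of all genes. Plcd1, a phospholipase gene, had the smallest p, but from 3 to 13 counts per library (log2 fold change 1.79, SE 0.44, edgeR adjusted p 0.739). Atp1b1, a sodium pump subunit gene, had 63.3 ± 6.9 and 48.3 ± 1.28 CPM (SD, n = 3; log2 fold change -0.39, SE 0.10, edgeR adjusted p 0.754). Actb, the cytoskeletal actin gene, and Dio1 had the highest levels among its genes, with Actb at 319.4 ± 28.1 and 333.4 ± 19.4 TPM.

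Levels of the 6 genes were correlated with each other over the 6 libraries, as 15 pairs of log2 CPM. Dio1 ran against Ttr, with Pearson's r of -0.93 (exact permutation p 0.00417, adjusted over the pairs 0.0625) and Spearman's rho of -0.94 (exact permutation p 0.0167, adjusted 0.25). Without the 2 libraries farthest from the median of Dio1, r was -0.94. Dio1 ran with Slc16a10, with r of 0.90 (exact permutation p 0.0153, adjusted 0.115) and rho of 0.89 (exact permutation p 0.0333, adjusted 0.25), and r was 0.73 without the 2 farthest libraries. No pair passed after adjustment. These values pool both groups. The receptor genes had r of 0.36 with each other (exact permutation p 0.49, adjusted 0.697). Klf9 had r of -0.33 with Dio1 (exact permutation p 0.511, adjusted 0.697).

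Of the 8827 tested genes with a mean of at least 5 CPM, those whose log2 CPM followed each of the 6 most closely were named by the highest Pearson's r over the 6 libraries, as a description. For Dio1 these were Atp6v0c (0.995) and Wfs1 (0.991), and for Slc16a10 they were Cpt1a (0.997) and Otub1 (0.996). For Ttr they were Vnn3 (0.995) and Ptpn12 (0.992), for Klf9 Xkr8 (0.997) and Hykk (0.986), for Thra Snx19 (0.995) and Fam160b1 (0.985), and for Thrb Psenen (0.988) and Scaf4 (0.975). With so few libraries many genes reach such values. An r of at least 0.95 was found for 57 genes with Dio1, 53 with Slc16a10, 68 with Ttr, 46 with Klf9, 18 with Thra and 5 with Thrb.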

How the data were processed

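Liver RNA of 6 mice was enriched for messenger RNA and sequenced, per the labels' protocols. The submitters' processing notes list the tools HISAT, Bowtie2, RSEM and DESeq2. Their versions and settings, the strandedness and the genome build are not stated there. The authors deposited expected counts per gene, which are not normalized, with TPM values and FPKM values per library, per the file headers. Also deposited by the authors are a log2 fold change, p-value and q-value for each gene. In the authors' deposited table Slc16a10 had a q-value of 0.743 and the other 5 genes 0.999. Another 15 columns (group means and comparisons of single libraries) were not used. Coordinates are those of the table, whose 15803 genes matched by ID lay on the same chromosomes in GRCm38.p6. A shared chromosome does not tell builds apart, and 8607 of these genes had the same start.

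Expected counts were rounded. Genes were kept by filterByExpr with a minimum count of 10 (12033 genes), scaled by TMM (factors 0.955 to 1.05) and compared with edgeR 4.0.16 in R 4.3.3 (robust quasi-likelihood test, no block, Benjamini-Hochberg adjustment over all genes). The biological coefficient of variation was 15.8%. CPM use TMM-scaled totals. Confidence intervals are at 95%. The fit was tested on simulated data. The 6 genes and all lists were chosen with earlier results of these data known, so lists are described by counts and medians without a test. From each list the text names genes past the threshold, 2 with the smallest p and 2 with the highest TPM, and for each of the 6 genes the 2 most alike. Marker lists are given as sums, and the Kupffer cell list also as a count of positive values. Alternatives were other scalings and filters, DESeq2 1.42.0, limma 3.58.1 (voom, and trend on log2 of TPM or FPKM with a pseudocount), a block and left-out libraries.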

Additional observations from a re-analysis of the deposited data

How the results depend on the processing

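Over 18 alternatives Dio1 and Slc16a10 kept positive and Thra, Thrb and Ttr negative log2 fold changes, with ranges of 0.37 to 1.08, 0.21 to 0.42, -0.62 to -0.11, -0.26 to -0.02 and -0.28 to -0.07. Of these only Dio1 under the replicate block crossed the threshold. With 1 library left out Klf9 ran from -0.19 to 0.44, and it was -0.09 with wild type replicate 2 as the only control. In that setting Clock was 0.02. Nr1d1, at -0.73 with all libraries, ran from -1.47 to 0.11 with 1 library left out, and the log2 ratio of Thrb to Thra from -0.01 to 0.40. The number of genes called, 1 in the reported fit, was 28 with DESeq2 (16 higher, 12 lower), 0 at a mean of at least 5 CPM (452 at an unadjusted p under 0.05) and 0 with wild type replicate 2 alone against the KO-labelled libraries (279 at an unadjusted p under 0.05; the lone library is assumed to vary like the others), all counts of edgeR but the first. With 1 library left out it was 1 to 5, the 5 without KO-labelled replicate 1. The causes were not tested. TPM values shifted the median log2 fold change of all genes to -0.11 (pseudocount 1) and -0.13 (0.1).

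With the replicate number as a block edgeR called 34 genes, 0.283% of those tested, 19 higher and 15 lower. Dio1 was among them (log2 fold change 0.83, SE 0.12, adjusted p 0.0249), higher in the KO-labelled library of each number. Of the other genes named, Fasn (-1.04, adjusted p 0.0105) and Lcn2 (1.14, adjusted p 0.0492) were also called. Deviations from the group means correlated at 0.274, 0.0571 and 0.337 for numbers 1, 2 and 3, so not every pair passed 0.1 and the labels do not say that a number is shared by litter or day. Whether the numbers mark a pairing is thus not known, and the reported fit has no block. Each library correlated best with its own number, a hint from the data only.

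Depth limits Thra most, at 97.4 to 208.0 counts per library.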
